A study of Zea mays with 18 samples.

Results

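Iron deficiency in roots was examined by comparing 3 root libraries from iron-deprived maize plants with 3 from iron-supplied plants, 6 of the 18 RNA-seq libraries of the study. The libraries were chosen by their titles alone: those naming roots without iron (-Fe) and those naming roots with iron (+Fe). All plants were Zea mays of the inbred line W22, wild type, grown in hydroponic solution for 12 days and then kept with or without iron for 3 days. Each group then received new solution of its own kind, and roots were frozen 24 hours later, so that deprivation had lasted through that last day as well. The 2 groups are called deficient and sufficient roots. Another root group, called resupplied, had been deprived in the same way and was given solution with 0.1 mM FeSO4-EDTA for the last 24 hours; its 3 libraries entered the fit to help estimate the spread. The replicates are biological per the labels, which do not give the number of plants behind each, and the p-values measure the spread between these libraries.

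Iron is needed for respiration, photosynthesis and many enzymes, but in aerated soil or solution most of it is ferric and poorly soluble. Grasses such as maize release mugineic acid phytosiderophores from their roots, which chelate ferric iron, and take up the chelate through Yellow Stripe transporters. Roots of deprived grasses are known to raise the transcripts of the methionine and nicotianamine steps that supply phytosiderophores. The deposited files give identifiers without gene names. The only name table used here was that of RefSeq for another inbred line, the B73 assembly Zm-B73-REFERENCE-NAM-5.0, and 0 of the 40690 identifiers occurred among its 49888 genes; no annotation of W22 was used. The root label could therefore not be checked against marker genes, no sequence is shown, and the response is described by the direction and size of change and by abundance.

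The 6 libraries held 63058129 to 78431980 estimated counts each, and 27385 to 27512 genes had a count. On principal components of log2 CPM (counts scaled to a common library size, with TMM factors), the first component held 31.2% of the variance and separated the groups, with sufficient libraries 1, 2 and 3 at -41.9, -36.6 and -51.8 and deficient libraries at 58, 47.4 and 24.9. Deficient library 3 lay nearest to the sufficient group. It also had the fewest counts of the 6. The second component, with 19.3% of the variance, placed library 3 of both groups at the low end, at -40 and -53.9, while the other 4 libraries lay between 2.2 and 39.1.

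At an adjusted p of 0.05, most of the genes that differed between deficient and sufficient roots were higher in deficient roots, in every class of size. The directions were nearer even at looser thresholds and without deficient library 3, as given below. Of 26577 genes tested, 767 or 2.89% passed an adjusted p of 0.05 in edgeR's quasi-likelihood test, and "rose", "fell" and "called" refer to this test. The 554 risers were 2.08% of the genes tested and the 213 fallers 0.801%. The median riser was 1.92-fold higher and the median faller 1.68-fold lower. The middle of the distribution of risers ran from a log2 fold change of 0.64 (lower quartile) to 1.51 (upper quartile), and that of fallers from -1.02 to -0.58.

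**Figure D1:**
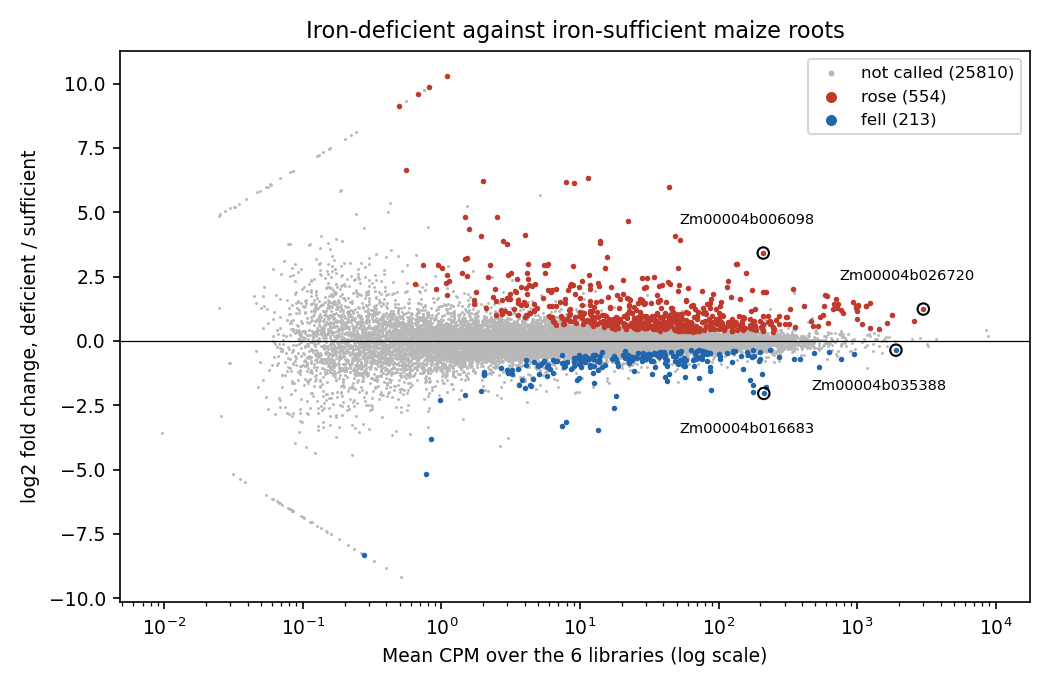
Each point is a gene, placed by its mean CPM over the 6 libraries (log scale) and its log2 fold change in deficient against sufficient roots; red points rose (554), blue points fell (213), grey points were not called, and circles mark the 4 named genes. Above 100 CPM the red points reach a log2 fold change of 3.41 and the blue ones -2.04; the diagonal lines of points at low CPM are genes with no count in 1 of the groups, whose fitted change depends on a small added count.

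By size, 105 risers and 56 fallers had changed by less than 1.5-fold, 201 and 98 by 1.5- to 2-fold, and 162 and 47 by 2- to 4-fold. From 4- to 8-fold there were 59 and 6, from 8- to 16-fold 10 and 4, and from 16-fold on 17 and 2. At 4-fold or more there were 86 risers and 12 fallers in all, which is 15.5% of the risers and 5.63% of the fallers. Among all genes tested, called or not, the numbers past 4-fold were closer, with 233 higher and 176 lower. A test of whether a gene had changed by more than 1.5-fold (edgeR's glmTreat) was passed by 154 risers, 0.579% of the genes tested, and by 24 fallers, 0.0903%. The 154 had a median log2 fold change of 1.81 and the 24 a median of -1.59.

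The balance of directions depended on how strict the threshold was. At an adjusted p of 0.01, 269 genes were higher and 58 lower in deficient roots, so 17.7% were lower. At an adjusted p of 0.05 27.8% were lower, and at 0.1 36.2%, with 832 higher and 473 lower. At an unadjusted p of 0.05 the directions were even, with 2068 genes higher and 2037 lower. Genes whose 3 deficient libraries all lay above the 3 sufficient ones numbered 2704, or 10.2% of those tested, and those whose deficient libraries all lay below numbered 2645, or 9.95%. All 554 risers and all 213 fallers were among these, as a call with 3 libraries in a group nearly requires.

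Abundance was described by mean CPM, which is not divided by gene length since the files give no lengths. In sufficient roots the risers had a median of 23 CPM and the fallers 32.9 CPM, against 13.9 CPM for all genes tested, and in deficient roots the order was the other way round, at 43.2 and 20 CPM. Genes were grouped by their CPM in sufficient roots, a grouping added after the data were seen. The share that rose was 1.15% under 1 CPM, 1.75% from 1 to 10 CPM, 2.17% from 10 to 100 CPM, 4.12% from 100 to 1000 CPM, and 14% (6 of 43 genes) from 1000 CPM on. The share that fell was 0.0302%, 0.505%, 0.99%, 1.93% and 4.65% in the same classes, the last being 2 of 43 genes. Both shares were thus higher in more abundant classes, and risers outnumbered fallers in each.

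The grouping itself moved these shares. A mean over all 6 libraries includes the change, so that a rise lifts a gene into a higher class, and on that basis 28.3% (13 of 46 genes) rose from 1000 CPM on and 0.246% under 1 CPM. A mean over sufficient libraries alone shares those libraries with the test. Grouped by the resupplied libraries, which are not among the 6 compared, 0.667% rose under 1 CPM and 15.6% (7 of 45 genes) from 1000 CPM on, while 0.116% and 4.44% fell. The resupplied libraries were in the fit, however, and the risers held 5.25% of CPM there against 4.18% in sufficient roots. That grouping may therefore not be free of the change either.

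The precision of the test differed with abundance as well. By mean CPM over the 6 libraries, the median standard deviation of log2 CPM between replicates was 0.742 under 1 CPM, 0.27 from 1 to 10 CPM and 0.111 to 0.134 in the 3 classes above. The smallest called log2 change was 2.03 under 1 CPM, 0.56 from 1 to 10 CPM, and 0.33 to 0.36 above. The part that this difference in precision had in the shares of calls was not tested.

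**Figure D2:**
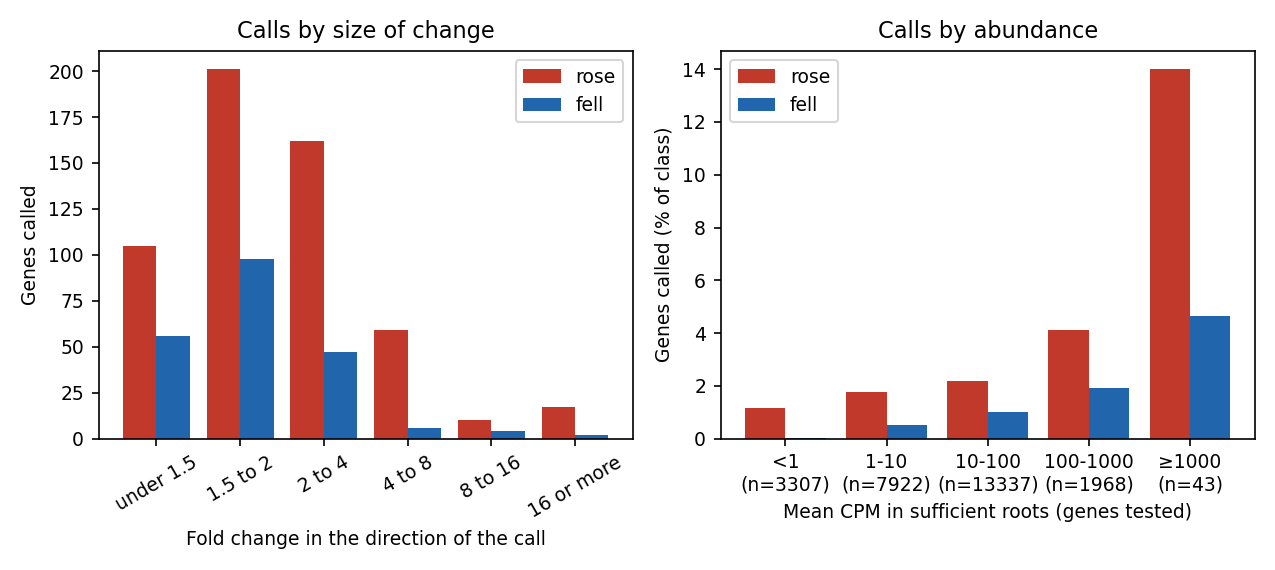
Left, the number of genes that rose (red) or fell (blue) in deficient roots by size of fold change; right, the percentage of genes called in each class of mean CPM in sufficient roots, with the number of genes tested under each class. Rises outnumber falls in every class of both panels, by 59 to 6 between 4- and 8-fold and by 6 to 2 from 1000 CPM on.

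At most 2 rising and 2 falling genes are named, because the identifiers carry no gene names. In each direction these are the called gene with the largest difference in mean CPM and the called gene with the largest fold change among those of at least 100 CPM in the higher group. The files do not say what these genes encode.

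Zm00004b026720 gained the most CPM. It had 1850, 1660 and 1860 CPM in sufficient libraries 1, 2 and 3 and 4330, 4470 and 3860 CPM in the deficient ones. The groups lay far apart, with the lowest deficient library above 2 times the highest sufficient one. Its mean was 1790 ± 115 CPM in sufficient and 4220 ± 319 CPM in deficient roots (SD, n = 3), and the log2 fold change was 1.24 ± 0.1 (SE, adjusted p = 4.2e-05). Ordered by CPM, it went from position 11 to position 3 among all genes tested. In resupplied roots it was at 2150, 2640 and 2260 CPM, between the other groups.

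Zm00004b006098 had the largest rise among genes of at least 100 CPM. It was at 32.2, 39.5 and 36.4 CPM in the sufficient libraries and at 444, 404 and 304 CPM in the deficient ones. Deficient library 3 was the lowest of its group and still well above all sufficient libraries. The mean went from 36 ± 3.67 to 384 ± 72 CPM (SD, n = 3), which is 10.7-fold; on the log2 scale this was 3.41 ± 0.2 (SE, adjusted p = 6.1e-06). Its position by CPM moved from 6985 to 229. Resupplied roots had 60.1 ± 15.3 CPM.

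Zm00004b035388 lost the most CPM, though by a small factor. It was at 1970, 2250 and 2200 CPM in the sufficient libraries and at 1660, 1680 and 1670 CPM in the deficient ones. The groups did not overlap, and the deficient libraries lay closer together than the sufficient ones. Its log2 fold change was -0.36 ± 0.07 (SE, adjusted p = 0.025), or 1.28-fold lower, and the test against 1.5-fold was not passed (adjusted p = 1). The call ended without sufficient library 2 or 3 or deficient library 1 or 2, with adjusted p of 0.091, 0.09, 0.11 and 0.073, when only the 6 compared libraries were fitted (0.063), and when a replicate number was left out of both groups (0.086 to 0.18); over all alternatives the log2 change was between -0.42 and -0.32.

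Zm00004b016683 had the largest fall among genes of at least 100 CPM. It was at 311, 366 and 347 CPM in the sufficient libraries and at 63.5, 74.3 and 111 CPM in the deficient ones. Deficient library 3 was again the nearest to the sufficient group. The mean fell from 341 ± 27.8 to 82.9 ± 24.9 CPM (SD, n = 3), which is 4.12-fold; the log2 change was -2.04 ± 0.19 (SE, adjusted p = 0.00012). Its position by CPM moved from 271 to 2635. In resupplied roots it was at 445, 341 and 407 CPM, a range that includes 2 of the 3 sufficient values.

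**Figure D3:**
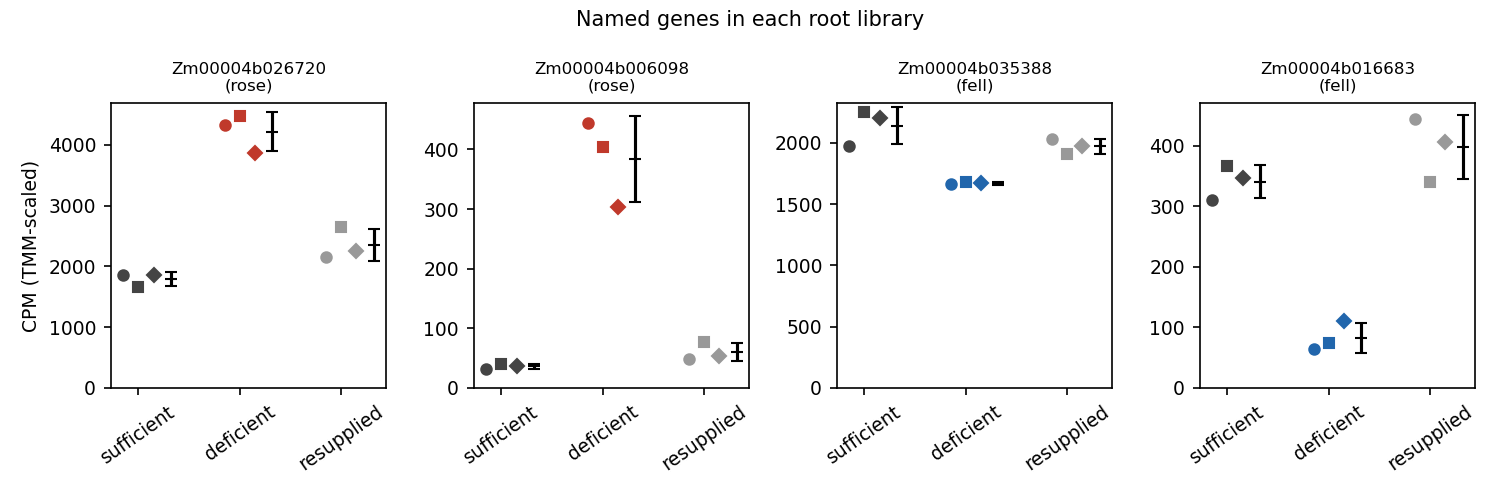
TMM-scaled CPM of the 4 named genes in each root library; circles, squares and diamonds are replicates 1, 2 and 3, and the bars give mean ± SD (n = 3). In each panel the 3 deficient libraries lie wholly above (Zm00004b026720, Zm00004b006098) or wholly below (Zm00004b035388, Zm00004b016683) the 3 sufficient ones.

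Together the risers came to nearly 2 times their sufficient share of the root transcriptome. They held 4.24, 4.05 and 4.25% of all CPM in sufficient libraries 1, 2 and 3, and 8.19, 8.37 and 7.85% in the deficient ones, or 4.18 ± 0.113% against 8.14 ± 0.264% (SD, n = 3). The fallers held 1.9, 1.99 and 1.89% in sufficient and 1.11, 1.11 and 1.25% in deficient libraries. Since genes were chosen by their difference in these same libraries, these shares describe the calls and carry no test. Summed over genes, the mean gain of the risers was 40989 CPM and the mean loss of the fallers 7247 CPM.

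No single gene made up most of these sums, though a minority of the called genes did. The first riser made up 5.92% of the gain, the first 10 made up 28.5% and the first 50 67.5%; it took 24 genes to reach 50% and 107 to reach 80%. Of the loss, the first faller made up 6.52% and the first 10 38.6%, with 50% reached at 16 genes and 80% at 62. Among the 100 most highly counted genes of sufficient roots, 12 rose and 5 fell. Of the 24 genes that were among the first 100 in deficient roots only, 19 had risen, and of the 24 that had dropped out, 3 had fallen. The order was taken from the same libraries as the calls, and each gene that enters displaces another. These numbers therefore carry no test.

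**Figure D4:**
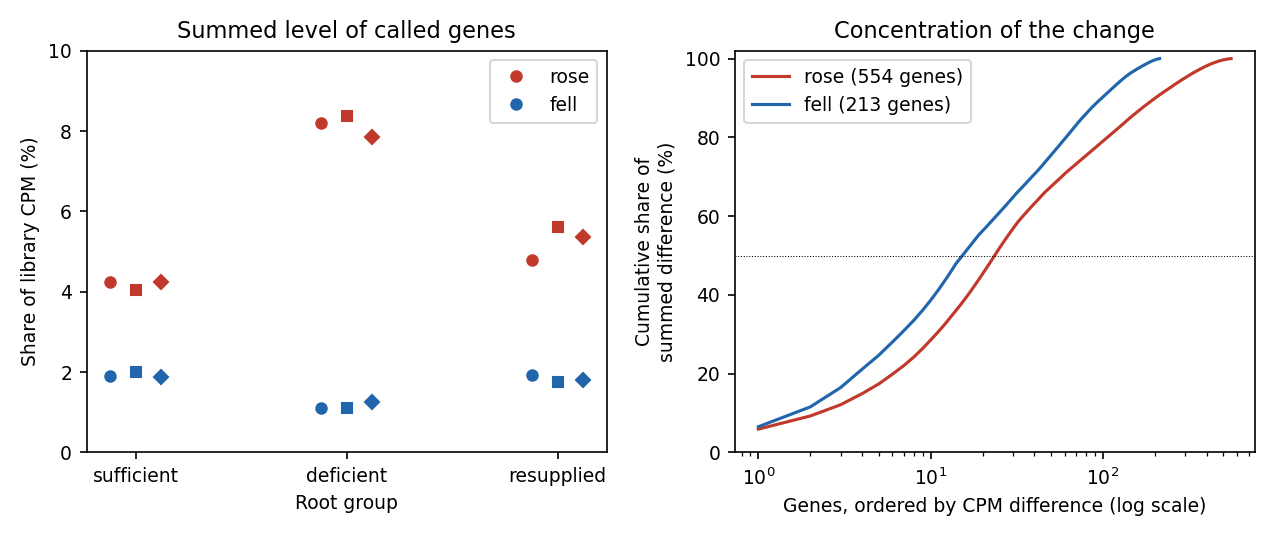
Left, the share of each library's CPM held by the genes that rose (red) or fell (blue) in deficiency, in the 3 root groups, with circles, squares and diamonds for replicates 1, 2 and 3; right, the cumulative share of the summed CPM difference against the number of genes, ordered by difference (log scale). Risers hold 7.85 to 8.37% in deficient and 4.05 to 4.25% in sufficient libraries, and 50% of the gain is reached at 24 genes.

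The largest folds mostly belonged to genes nearly silent in sufficient roots. Of the 27 risers past 8-fold, 18 were under 1 CPM in sufficient roots, and their higher level was modest too, with a median of 5.57 CPM over the 27. In all, 38 risers (6.86%) were under 1 CPM in sufficient roots, of which 9 reached 5 CPM and 3 reached 10 CPM in deficient roots. Of the fallers, 6 (2.82%) were under 1 CPM in deficient roots. At the other end, 87 risers already had 100 CPM or more in sufficient roots, and 23 fallers kept 100 CPM or more in deficient roots.

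Genes with no count in 1 group and a count in all libraries of the other were few, and most of them failed the filter on low counts. There were 38 genes at 0 in all 3 sufficient and above 0 in all 3 deficient libraries, and 39 with the reverse pattern. In each set 12 genes passed the filter, and 4 of the first and 1 of the second were called. Over all genes tested, 2.08% rose and 0.801% fell. The pattern was picked from the same libraries as the calls, so these numbers carry no test. The counts in the 2 sets were mostly low, with medians of 9.5 and 8 estimated counts per library in the group that had any, so no fold is given for them. The highest means were 161 in the first set and 39 in the second.

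When genes were required to reach 10 CPM in the higher group, 459 rose and 172 fell. Of these, 168 and 34 had changed at least 2-fold, 46 and 7 at least 4-fold, and 12 and 3 at least 8-fold. The 10 largest rises there were log2 changes of 3.41 to 6.32, and the 10 largest falls of 1.72 to 3.48 in size. When 100 CPM were required, 51 of 146 risers and 12 of 40 fallers had changed at least 2-fold.

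For most of the remaining genes the data bounded the change. Of the 25810 genes not called, 19450 or 75.4% had a 95% confidence interval of the fold change that lay within 2-fold in either direction, and 13502 or 52.3% within 1.5-fold. The median standard error over all genes tested was 0.16 on the log2 scale. Another 1214 uncalled genes had an estimate of 2-fold or more, 564 of them higher in deficient roots, and 919 of these 1214 were under 1 CPM, where the smallest called log2 change was 2.03.

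The spread between replicates was alike in both groups. The median standard deviation of log2 CPM was 0.177 in sufficient and 0.188 in deficient roots, and 52% of the genes varied more in deficient roots. Among fallers, 61% varied more in deficient roots, with medians of 0.134 and 0.158. Among risers it was 47.8%, with medians of 0.159 and 0.149. The spread of log2 CPM was larger at low CPM, and by their choice fallers were lower and risers higher in deficient roots. The part that this had in these percentages was not tested.

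Deficient library 3 showed the response less strongly than the other 2, above all for fallers. Against the mean of sufficient roots, the median log2 ratio of the 554 risers was 0.96, 0.94 and 0.88 in deficient libraries 1, 2 and 3. For the 213 fallers it was -0.8, -0.81 and -0.63. Library 3 was the nearest of the 3 to the sufficient mean for 251 risers (45.3%) and for 132 fallers (62%). Without it, 527 genes rose and 495 fell, so that 48.4% of calls were lower against 27.8% with it, and 619 of the 767 calls remained. No other left-out library took the share of lower calls above 23.1%.

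The total also moved with other libraries. It was 433 without sufficient library 1 and 502 without sufficient library 3, and 422 and 436 without deficient library 1 or 2, with 17.5 to 23.1% of these calls lower. Calls that held without each of the 6 libraries in turn numbered 273 of the 554 risers (49.3%) and 57 of the 213 fallers (26.8%). These 273 risers had a median log2 change of 1.25, and 174 of them had changed at least 2-fold. The 57 fallers had a median of -0.99, and 28 had changed at least 2-fold. Among the named genes, Zm00004b026720, Zm00004b006098 and Zm00004b016683 were called without any of the 6, with log2 changes of 1.19 to 1.3, 3.3 to 3.56 and -2.31 to -1.88.

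Calls were also set against libraries that had no part in them. Replicate 1 of both groups was left out, genes were called from the remaining libraries, and the left-out deficient library was compared with the left-out sufficient one. Of 222 risers called that way, 216 (97.3%) were higher in the left-out deficient library, against 49.4% of all genes tested. Of 46 fallers, 44 (95.7%) were lower there, against 50.6%. The median log2 ratio of the risers was 1.38 in the fit and 1.26 in the left-out pair. The fit gives edgeR's log2 fold change and the pair a difference of log2 CPM with a prior count of 2. Sizes in the fit and in the pair are therefore not strictly the same measure, here and below.

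With replicate 2 left out, 271 of 287 risers (94.4%) and 63 of 68 fallers (92.6%) had the same direction in the left-out pair. With replicate 3 left out, 411 of 464 risers (88.6%) did so, but only 249 of 402 fallers (61.9%), against 50.3% of all genes tested. The median log2 ratio of those fallers was -0.8 in the fit and -0.1 in the left-out pair, while that of the risers was 1.03 and 0.71. At least 88.6% of risers had the same direction in each left-out pair. The part that the lower depth of deficient library 3 had in this was not tested.

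**Figure D5:**
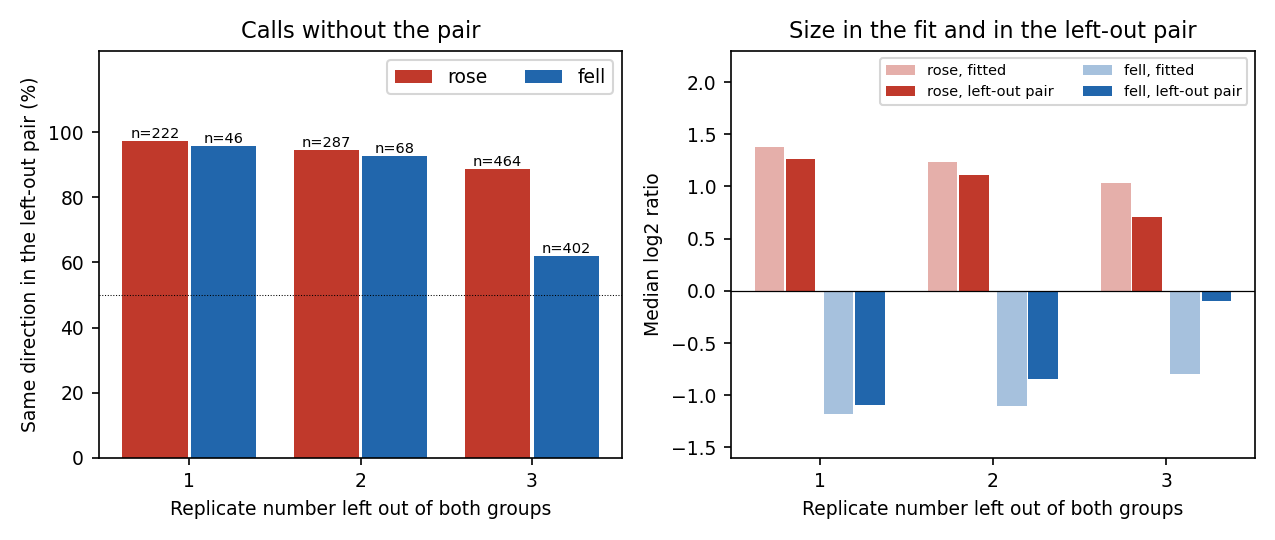
Left, the percentage of genes called without a replicate number that had the same direction in the left-out pair of libraries, with the number of genes called; the dotted line marks 50%. Right, the median log2 ratio of deficient to sufficient roots of those genes, from edgeR in the fit (pale) and as a difference of log2 CPM in the left-out pair (dark). Red is for risers and blue for fallers, and fallers called without replicate 3 have a median of -0.8 in the fit and -0.1 in the pair.

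The authors' deposited table of their own DESeq2 comparison of these groups lists 28317 genes and gives 1722 an adjusted p under 0.05, of which 1057 are higher and 665 lower (38.6% lower). It includes 750 of the 767 calls made here from the counts (97.8%), which are 43.6% of the calls in the authors' deposited table, and 0 of the 750 differ in sign. Of the 17 others, 10 rose and 7 fell. Genes called only in the authors' deposited table numbered 969 among those tested here; 966 had the same sign here, with a median unadjusted p of 0.00553 in edgeR, and 47.4% of them were lower. DESeq2 run on the deposited counts gave a similar total, 1595 genes, of which 607 were lower, and all 767 calls were among them. Among shared calls the median absolute log2 fold change was 0.85 here and 0.74 in the authors' deposited table, whose values run from -2.64 to 4.24. For the named genes, the authors' deposited table gives log2 fold changes of 1.19 for Zm00004b026720, 3.09 for Zm00004b006098, -0.35 for Zm00004b035388 and -1.78 for Zm00004b016683.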

How the data were processed

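RNA was measured by RNA-seq in 18 libraries, and 9 root libraries were used here. The authors deposited estimated counts per gene, 1 file per library; Trim Galore, HISAT2, StringTie and DESeq2 were used, per the submitters' processing notes, without versions. The genome build is not given in the sources used here, nor is the annotation. All values were whole, so rounding changed none. Low values (up to 40) were multiples of 4 in 29.3 to 32% of cases in the 6 compared libraries, against 25% if evenly spread, so a count may not equal a read, and dividing by 4 was tried. The authors also deposited a table for this comparison with a base mean (a normalised signal), a log2 fold change and its standard error, a Wald score and p-values, per the file headers; 94.6% of genes had a base mean within 1.5 times the mean count.

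Groups and replicate numbers came from sample titles. Counts were fitted with edgeR 4.0.16 in R 4.3.3 (TMM, filterByExpr, quasi-likelihood F-test, group as only term, 9 root libraries, Benjamini-Hochberg over 26577 genes). Standard errors and 95% intervals were derived from the F statistic. glmTreat tested against 1.5-fold. Log2 CPM used a prior count of 2. Alternatives were median-of-ratios and total-count scaling, 2 other filters, a fit of 6 libraries, a replicate block, a robust fit, DESeq2 1.42.0, limma-voom (limma 3.58.1), other fold thresholds and left-out libraries. Replicates of a group differed by more than sampling noise. The 4 named genes follow a rule: in each direction, the called gene with the largest CPM difference and that with the largest fold change at 100 CPM or more in the higher group. A list of iron acquisition genes could not be applied without gene names. The comparison, lists and rules were chosen with earlier results of these data known. Shoot libraries and the authors' other tables were not used.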

Additional observations from a re-analysis of the deposited data

How the results depend on the processing

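The count of called genes, 767, ran from 268 to 1022 when a library, or the same replicate number of both groups, was left out, and DESeq2 gave 1595 calls with 38.1% lower. Under the other 9 scalings, filters, fits and tests it stayed within 1.5 times, but the genes called were not all the same. Of the 767 calls, 501 remained with the replicate number as a block and 609 when only the 6 compared libraries were fitted. Median-of-ratios scaling kept the most, 763. Total-count scaling called 494 risers and 299 fallers (37.7% lower) and moved the median log2 change of all genes from -0.014 to -0.052. The 178 genes past 1.5-fold became 371 against 1.2-fold and 81 against 2-fold, and 98 to 170 with libraries left out. The numbers were not treated as pairs, since the labels do not say that they mark a shared batch. Deviations of same-numbered libraries from their group means correlated across genes at 0.064, 0 and 0.07 for numbers 1, 2 and 3. The values for numbers 1 and 3 were the highest of all sufficient and deficient pairs, which ran from -0.082 to 0.07. Sufficient library 2, however, correlated best with deficient library 1 (0.022). The second principal component orders the 3 numbers alike in both groups. Whether same-numbered libraries share a batch cannot be told from the labels. With the replicate number as a block, 529 genes were called, 410 risers and 119 fallers. The share of lower calls was thus 22.5%, against 27.8% without the block. Zm00004b035388 was not called with the block (adjusted p = 0.08). No direction reversed for the 4 named genes under any of the 19 alternatives. Precision was lowest under 1 CPM, where the median standard error was 0.87; the part of depth in this was not tested.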

Other observations

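Called genes with consecutive identifier numbers were counted. Of the 393 risers whose next number was also tested, 19 (4.83%) were followed by another riser, against 1.98% over all genes tested, and 1 was followed by a faller. The risers formed 15 such runs with 34 genes in all, the longest with 5. Of 143 fallers, 4 (2.8%) were followed by a faller, against 0.753% over all genes tested. The files do not say whether consecutive numbers are neighbours in the genome or whether such genes are near-identical copies.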
